A study of Arabidopsis thaliana with 3 samples.

Results

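The ribosomal protein genes described here were the genes of the deposited TSN1 target table whose description contains the words "ribosomal protein". They numbered 102 of 1504 target genes and carried 189 of 5673 binding sites. Descriptions with the word "ribosomal" alone took in 11 further genes, which gave 113 genes in all, and these 11 are named as such wherever they are used. By the standard names of their proteins, 63 of the 102 encode proteins of the cytosolic ribosome and 34 proteins of the plastid ribosome. SSR16, a small subunit protein S16, could not be placed in 1 organelle, and 4 members are not clear components of a ribosome.

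The binding sites came from iCLIP2, an assay in which ultraviolet light joins a protein to the RNA it touches, the protein is captured with its RNA, and the ends of the cDNA mark the crosslinked nucleotide. The protein was TSN1, a Tudor and nuclease-domain protein of plant stress granules, fused to green fluorescent protein. The single group held 3 biological replicates of Arabidopsis thaliana carrying pTSN1::GFP:TSN1 in Col-0, so the fusion was driven by its own promoter in a wild-type background that keeps its native TSN1 gene. Seedlings were 14 days old, grew with 16 h of light and 8 h of dark, were collected at ZT10 and received 2000 mJ/cm2 at 254 nm, and each replicate pooled about 3 g of mostly aerial tissue from 3 plates. No control sample was part of the series, so TSN1 crosslinks and background of the pull-down cannot be told apart in any value below. The deposited lists pool the replicates, so no value or spread per replicate exists and no test over samples was possible. Neither read depth nor RNA abundance is known here, so a strongly bound RNA and an abundant one cannot be told apart. Of the tissue markers, 6 of 6 leaf genes were targets, with 40 sites, against 1 of 8 root genes, PYK10, with 18 sites. The background was 5.04% of nuclear protein-coding genes, and marker abundance was not measured.

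Plant cells hold separate ribosomes in the cytosol, the plastids and the mitochondria, each with a large subunit that forms peptide bonds and a small subunit that reads the mRNA. All proteins of the cytosolic ribosome are encoded in the nucleus, usually by several near-identical paralogs per protein. Plastid ribosomes resemble those of bacteria, and their proteins are encoded partly in the nucleus, mostly by single genes, and partly in the plastid genome.

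Ribosomal protein genes carried few sites of modest score. The members averaged 1.85 sites per gene (SD over genes 1.11, n = 102), against 3.92 in the other protein-coding targets (SD over genes 3.88, n = 1301). The highest number was 6 sites in a member and 36 in another target. At least 2 sites were present in 52 of 102 members (51.0%, Wilson 95% interval 41.4 to 60.5), against a background of 66.2% of all 1403 protein-coding targets. Gene length differed as well, with a median span of 1591 nt in the members and 2051 nt in the other targets, and per kilobase of span the medians were 1.03 and 1.35 sites. The part of length in the number of sites was not tested. All intervals here cover the counting of sites or genes only, and sites of 1 gene are not independent of each other.

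The score of a site is the authors' own value, has no stated unit and equals the highest called peak in the site. Its median was 9.23 over the 189 member sites (quartiles 6.55 and 13.3, range 1.54 to 27.6) and 12.4 over the 5106 sites of the other targets (quartiles 8.23 and 18.7, maximum 318). Scores above the median of all sites, 12.5, were held by 55 of 189 member sites (29.1%, 23.1 to 35.9), against a background of 48.6% of sites in protein-coding genes. The members were 7.27% of protein-coding targets, held 3.57% of their sites and 2.14% of their summed score. The member with the highest summed score had rank 423 among the 1403 targets, and the member site with the highest score had rank 753 among all sites.

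**Figure D1:**
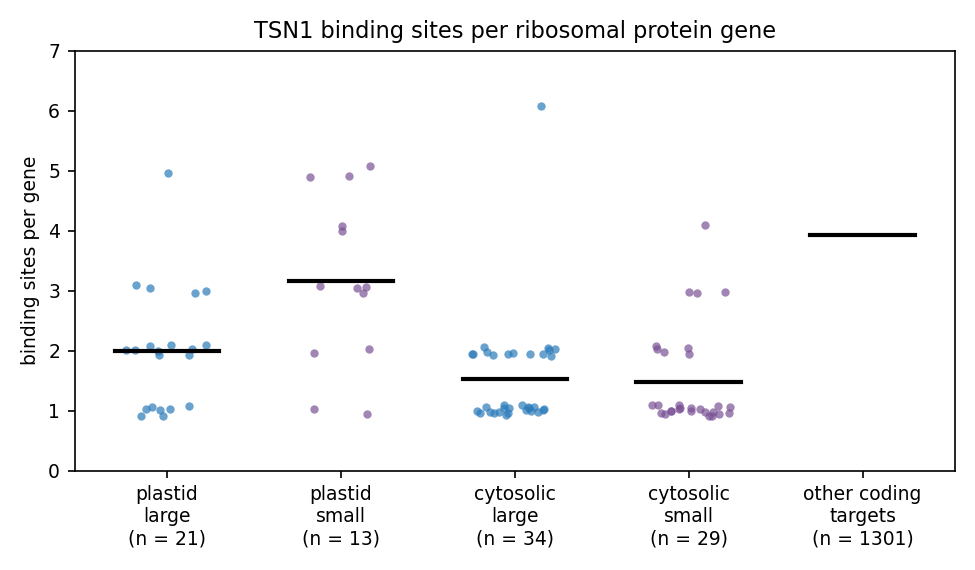
Number of TSN1 binding sites in each plastid and cytosolic ribosomal protein gene by subunit (points, shifted slightly so that they do not overlap) with the mean of each class (black line), and the mean of the 1301 other protein-coding targets. The plastid small subunit genes average 3.15 sites, against 1.48 in cytosolic small subunit genes and 3.92 in other targets.

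Most member sites lay in the 3′ untranslated region (3′ UTR). The authors labelled 138 of 189 member sites as 3′ UTR (73.0%, 66.3 to 78.8), beside a background of 67% of sites in protein-coding genes, which lies within that interval. The coding sequence (CDS) held 48 sites (25.4%, 19.7 to 32.1), against 29.7% in the other targets, which lies within that interval. At least 1 CDS site was present in 35 of 102 members (34.3%, 25.8 to 43.9), against a background of 49.5% of protein-coding targets. A gene with more sites has more chances of a CDS site, so this share is not separate from the lower site number of members. Sites were 3′ UTR only in 65 members, CDS only in 11 and both in 23. Over all 1403 protein-coding targets these counts were 651, 163 and 522, and they too depend on the number of sites per gene. No member site was labelled 5′ UTR, and a count of 0 of 189 allows a share of up to 1.59% by the limit of 3 counts and 1.99% by the Wilson interval. The share was 1.61% in the other targets, so no difference was detectable at this number of sites. The only intron label was in LOS1, which is described below.

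Along the annotated gene span, with 0 at the 5′ end and 1 at the 3′ end, the member sites had a median position of 0.773 (n = 186) and the sites of other targets 0.624 (n = 5014). Positions above 0.75 made up 54.3% of member sites and 35.8% of sites in the other targets. The site nearest to the 3′ end lay a median of 207 nt from it in the members and 254 nt in the other targets. Of the 138 sites labelled 3′ UTR, 13 lay at a position below 0.5 (9.42%, 5.59 to 15.5), against 18.6% in the other targets (n = 3401). The spans include introns, the exon models behind the labels were not used here, and the labels were taken as deposited.

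Genes of the plastid ribosome carried more sites than genes of the cytosolic ribosome, and more of them in the CDS. Plastid members averaged 2.44 sites per gene (SD over genes 1.28, n = 34) and cytosolic members 1.51 (SD over genes 0.878, n = 63), with median spans of 1603 and 1559 nt. At least 2 sites were found in 25 of 34 plastid members (73.5%, 56.9 to 85.4) and in 23 of 63 cytosolic members (36.5%, 25.7 to 48.9), so the intervals did not overlap. The background of 66.2% lies within the plastid interval and above the cytosolic one. The CDS held 34.9% of the 83 plastid sites (25.6 to 45.7) and 17.9% of the 95 cytosolic sites (11.5 to 26.8), with intervals that overlap slightly. A CDS site was present in 20 of 34 plastid members (58.8%, 42.2 to 73.6) and in 13 of 63 cytosolic members (20.6%, 12.5 to 32.2). Here too the background, 49.5%, lies within the plastid interval and above the cytosolic one. The share of genes with a CDS site is not separate from the number of sites per gene, which was higher in plastid members. Called peaks, the authors' wider list from which sites are drawn, numbered a median of 35 per plastid member and 14 per cytosolic member. Here and below, peaks were counted in the gene span without regard to strand, so peaks of the opposite strand are included. The median site score was closer, 9.82 in plastid and 8.68 in cytosolic members. The compartment of 20 of the 34 plastid members rests on textbook knowledge and not on a label. With only the 14 so named in the description or by RefSeq, the plastid mean was 2.86 sites and the CDS share 40.0%. The contrast was found in these data, was not tested over samples, and the RNA levels of these genes were not measured here.

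**Figure D2:**
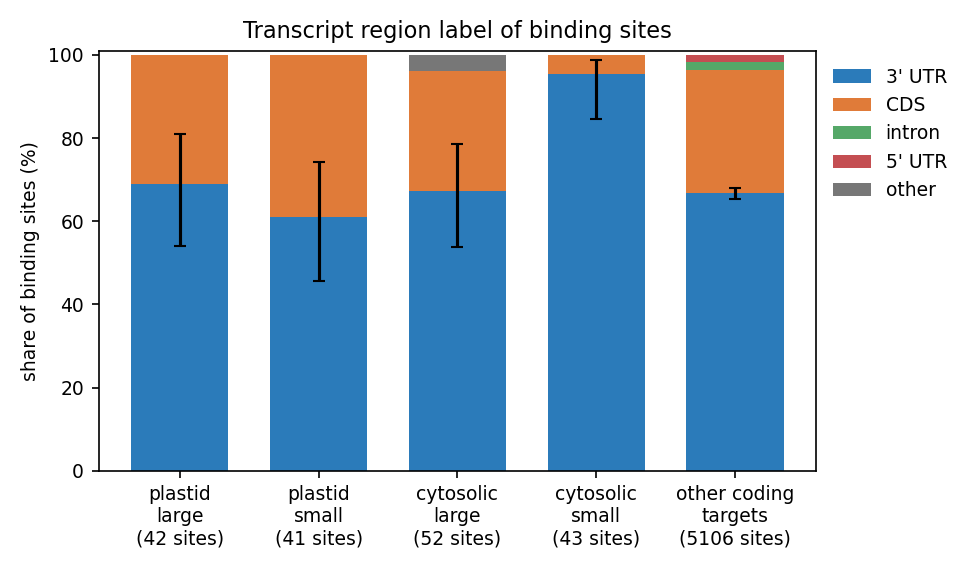
Share of binding sites by the authors' transcript region label in plastid and cytosolic ribosomal protein genes by subunit and in the other protein-coding targets; error bars are Wilson 95% intervals of the 3′ UTR share. The 3′ UTR holds 61.0% of sites in plastid small subunit genes and 95.3% in cytosolic small subunit genes.

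Within the cytosolic ribosome, small subunit sites were almost all in the 3′ UTR. In the 29 small subunit genes 41 of 43 sites were labelled 3′ UTR (95.3%, 84.5 to 98.7), and in the 34 large subunit genes 35 of 52 were (67.3%, 53.8 to 78.5), and these intervals did not overlap. By gene, a CDS site was present in 2 of 29 small subunit genes (6.90%, 1.91 to 22.0), RPS6 and the S16 gene AT5G18380. It was present in 11 of 34 large subunit genes (32.4%, 19.1 to 49.2), and these intervals overlap. The background, over targets with more sites per gene, was 49.5% of protein-coding targets with a CDS site. For the 3′ UTR label it was 67% of sites, which the large subunit share was near and the small subunit share was above. In the plastid ribosome the order was the other way round, with 61.0% 3′ UTR in the small subunit (45.7 to 74.3, 41 sites) and 69.0% in the large (54.0 to 80.9, 42 sites), which overlap. Over all members, the large subunit had 94 sites in 55 genes and the small subunit 87 sites in 43 genes. Their 3′ UTR shares differed by -10.1 percentage points, large minus small (95% interval -22.5 to 2.91), an interval that includes 0.

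Among the cytosolic large subunit members, emb2386 stood alone. It encodes an L19e-family protein and takes its name from an embryo-defective mutant. Its 6 sites on chromosome 1 (TAIR10, minus strand, 607973 to 609287) gave the highest summed score of all members, 58.6. From the 5′ side they scored 6.74 (CDS), 8.00 (3′ UTR), 15.4 (CDS), 4.86 (CDS), 14.3 (3′ UTR) and 9.37 (3′ UTR). The 3′ UTR label thus appeared upstream of 2 CDS labels, and such an order was seen in 1 other member, PSRP4. No other cytosolic large subunit gene had more than 2 sites.

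Of the genes near the functional centres of the cytosolic large subunit, RP1 (RPL3A), whose protein L3 reaches the peptidyl transferase centre, had 3′ UTR sites of 11.5 and 4.99. RPL23AA, whose protein L23a lies at the exit of the peptide tunnel, had both of its sites in the CDS, with scores of 14.3 and 8.35. PGY1 (L10a) and PGY2 (L9), known from leaf-shape mutants, had 2 sites of 7.14 and 11.6 and 1 site of 3.04. RPL34 held the highest cytosolic site score, 19.3, in its 3′ UTR. The acidic proteins of the stalk, which contacts translation factors, were represented by AT1G01100 with 1 site of 15.5 and AT2G27710 with sites of 9.92 and 4.55, all in the 3′ UTR.

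Among the cytosolic small subunit genes, RPS6 had the most sites. Its protein, S6, is the classical substrate of S6 kinase downstream of the TOR kinase. From the 5′ side its 4 sites scored 9.21 (CDS) and 7.93, 11.0 and 4.94 (3′ UTR), and its paralog EMB3010 had 3′ UTR sites of 10.6 and 8.42. The 3 genes with 3 sites all had them in the 3′ UTR and close together. In RPS28 they scored 12.5, 8.98 and 14.3 within 25 nt, in the S4 gene AT5G07090 14.4, 14.2 and 5.51 within 102 nt, and in the S7 gene AT1G48830 5.17, 5.91 and 5.15 within 31 nt. Among these members, RPS15 held the highest score of the cytosolic small subunit, 19.1. It lay at a single 3′ UTR site 165 nt from the annotated 3′ end (chromosome 1, 1141721 to 1141725). RPS5A, a gene known for activity in dividing cells, had 1 site of 10.3, and RPS13A, known from the pointed first leaf mutant, 1 site of 7.47. In all, 20 of the 29 cytosolic small subunit genes had a single site, against 474 of all 1403 protein-coding targets.

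**Figure D3:**
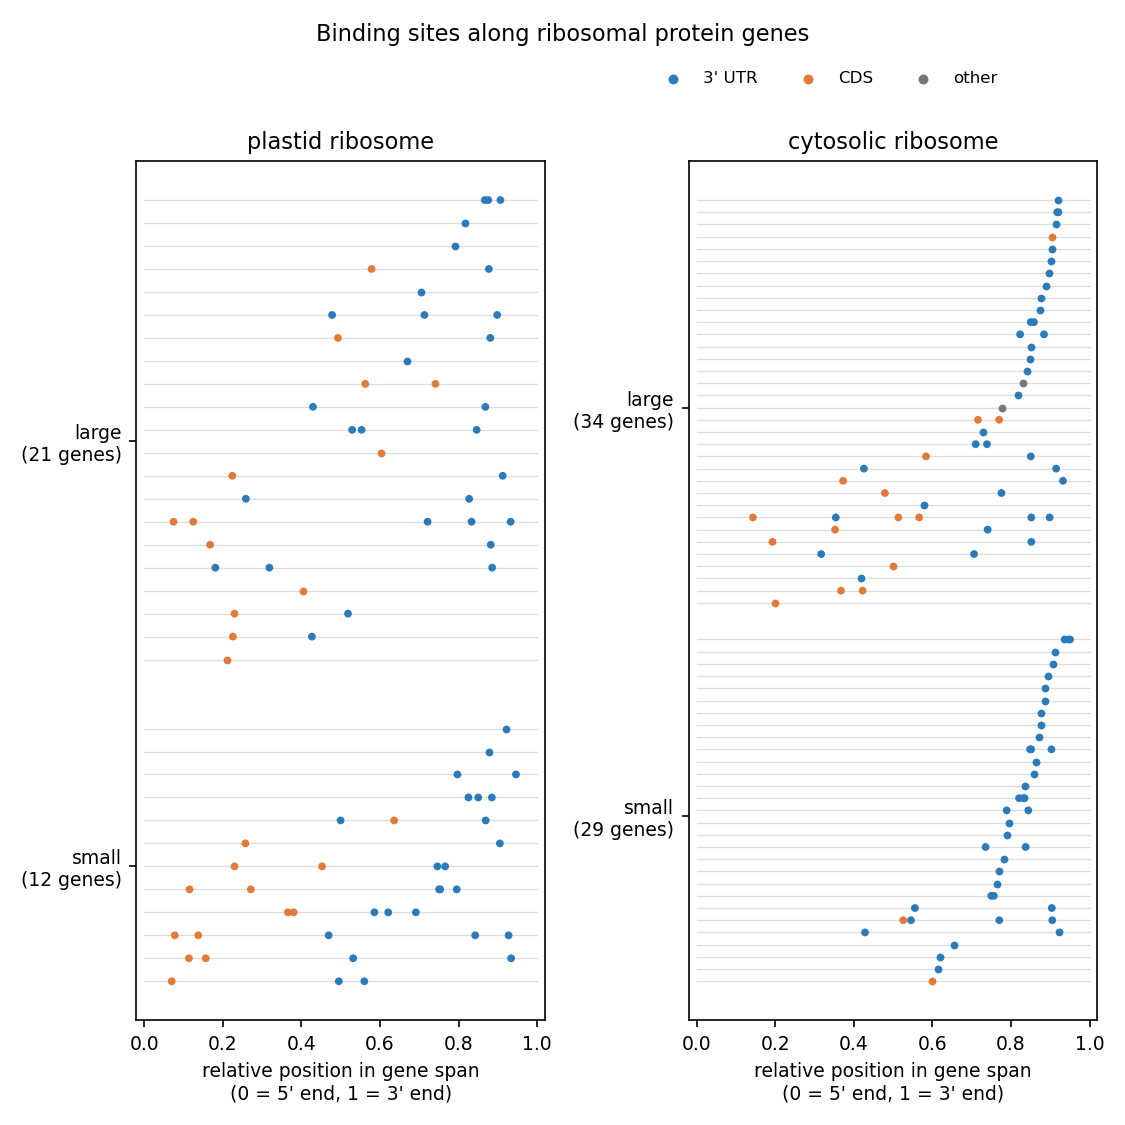
Position of each binding site along the annotated span of its gene, 1 gene per line, sorted within each subunit by mean position and coloured by the authors' region label. Sites of the cytosolic small subunit gather near the 3′ end, with a median position of 0.836, against 0.798 in the cytosolic large subunit. Plastid genes have sites along the span, with a median of 0.629, near the 0.624 of other protein-coding targets.

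Plastid genes, 34 of the 102 members, held 8 of the 10 highest summed scores. This sum grows with the number of sites, so it is not separate from the higher site number of plastid members. EMB3126, which encodes L1, a protein of the movable stalk beside the tRNA exit site, reached 58.3 with 5 sites on chromosome 3 (plus strand, 23444362 to 23446212). From the 5′ side they scored 15.4 and 8.84 in the CDS, close to the start of the span, and 21.0, 8.67 and 4.43 in the 3′ UTR. PRPL11, whose protein L11 belongs to the factor-binding region, held the highest score of any member site, 27.6, in its 3′ UTR (chromosome 1, plus strand, 11957194 to 11957198), beside a CDS site of 10.9. The L31 gene emb2184 had a single 3′ UTR site of 26.6. The L34 gene AT1G29070 had 3 sites of 22.0, 16.6 and 6.70 within 69 nt of the 3′ UTR. RPL27, whose bacterial counterpart L27 reaches the peptidyl transferase centre, had 3 sites of 18.3, 12.4 and 13.9, all labelled 3′ UTR, and the L13 gene emb1473 1 site of 19.4.

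Of the remaining plastid large subunit genes, RPL15 had 3 sites (25.9 in all), and 2 sites each were found in RPL21C (24.9), the L3 gene AT2G43030 (23.7), the L19 gene AT4G17560 (21.8) and the L10 gene EMB3136 (19.5). The L6 gene emb2394 (16.4), RPL12-A (15.4), PRPL35 (13.2) and RPL4 (12.4) also had 2 sites. Single sites were found in the L17 gene AT3G54210 (16.8), the L19 gene AT5G47190 (14.2), RPL9 (8.64) and RPL12-C (4.38). L12 forms the flexible stalk that recruits translation factors in bacteria. The L3 gene carried CDS sites only, as did AT3G54210 and AT5G47190.

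The plastid small subunit genes were the most densely bound class, with 3.15 sites per gene (SD over genes 1.41, n = 13) and a median of 2.05 sites per kilobase. AT5G24490, described as a 30S ribosomal protein, had 5 sites that summed to 52.2, of 15.5 and 7.22 in the CDS and 5.54, 15.0 and 8.93 in the 3′ UTR. The S13 gene EMB3137 also had 5 sites, which summed to 46.7 and were highest in the 3′ UTR, at 17.9. RPS1, whose bacterial counterpart S1 binds mRNA, had 4 sites (46.2 in all), of 5.53 and 7.88 in the CDS and 13.1 and 19.6 in the 3′ UTR. GHS1, the S21 gene known from a glucose-hypersensitive mutant, had 5 sites of low score, between 5.02 and 9.23. In these 4 genes each CDS site lay upstream of each 3′ UTR site.

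The S6 gene AT1G64510 had 2 sites, 1 of them at 26.0 and 81 nt from the 3′ end. The S10 gene AT3G13120 had 3 sites (17.3 in all), the S5 gene EMB3113 had 2 (15.8), and PRPS20 (8.30) and RPS9 (7.64) had 1 each. SSR16, left outside both classes, had a CDS site of 16.1 and 3′ UTR sites of 8.67 and 10.2.

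Genes named as plastid-specific ribosomal proteins (PSRP) had sites in both subunits. PSRP4 had 3 sites of 15.9, 14.7 and 18.1 that summed to 48.7, and PSRP5 had 3 sites of 8.82, 12.3 and 15.9, all in the 3′ UTR. PSRP3/1 had 3 sites (17.4 in all) and PSRP6 1 CDS site of 12.4.

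RPS14 was the one member encoded in the plastid genome. Its 3 sites, of 21.3, 12.0 and 7.82 from the 5′ side, all carried the CDS label and lay between 37047 and 37144 of the plastid chromosome. Of 21 ribosomal protein symbols in the plastid genome it was the only one with a called peak in its span, with 18 peaks on either strand. The share of all plastid genes with a called peak was not counted, so this count has no background. The symbols rpl2, rpl23, rps7 and rps12 are each listed at several loci, and how reads that match several places were assigned is not given. Of the nuclear genes that RefSeq names as mitochondrial ribosomal proteins, RPS14 (AT2G34520) and MRPL11, neither was a target. Neither had a called peak that lay in its span alone.

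**Figure D4:**
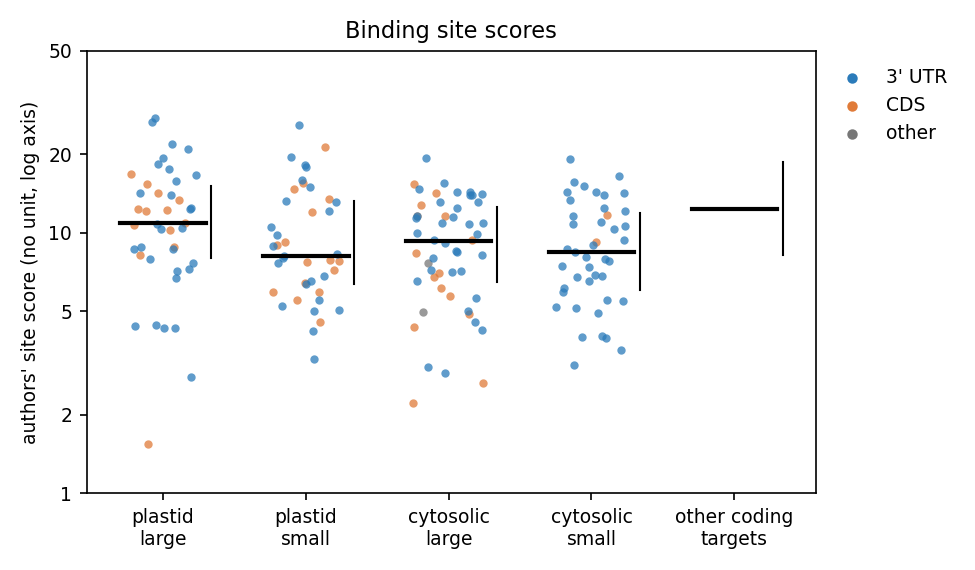
Score of each binding site in plastid and cytosolic ribosomal protein genes by subunit (points, coloured by region label, log axis) with class medians (thick line) and quartiles (thin line); the other targets are drawn by median and quartiles only. Class medians lie between 8.11 and 10.9, against 12.4 in other targets.

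The 4 members that are not clear ribosomal components entered through family names in their descriptions. LOS1 encodes elongation factor 2, which moves the ribosome along the mRNA, and had a CDS site of 11.4 and the only intron site of the set, at 14.5. It also had the most called peaks of any member, 85. The elongation factor 1B genes, whose proteins recharge elongation factor 1A, were AT5G19510 with 3′ UTR sites of 5.50, 20.7 and 21.3 and eEF-1Bb1 with 3′ UTR sites of 5.86 and 11.8. All 3 sites of AT5G19510 lay within 29 nt and inside the span of a neighbouring gene as well. AT1G17080, of an L18ae family, had 1 site of 9.43. Without sites inside another gene's span, of which there were 16 in 8 members, the 3′ UTR share was 72.8% and the median score 9.37.

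Most protein families had a single bound gene. The number of annotated paralogs per family was not counted here, so the bound gene may be the only one of its family. Over the 113 genes, the proteins fell into 89 families by L or S number, of which 70 had 1 bound gene, 19 had 2 and none had more. SSR16 and the 4 members that are not clear ribosomal components were left out of the families. So were 5 bound ribosomal protein genes with neither wording in their description, which are named below. The 19 pairs became 2 when each paralog needed 2 sites, and also 2 when each needed a site above the median score. Of the 54 cytosolic families 17 had a bound pair. They were 10 of the large subunit (L4, L6, L27a, L32, L34, L36, L36a, L38, L39, L41) and 7 of the small (S6, S13, S15, S15a, S21, S27, S30). Of the 35 plastid families, whose nuclear genes are mostly single, only L12 and L19 had a bound pair. Both paralogs had the same set of region labels in 14 of the 19 pairs and the same number of sites in 12. All of these matches were in cytosolic families. Of the 63 cytosolic members, 48 had 3′ UTR sites only and 40 had a single site. Unrelated cytosolic genes can therefore match as well, and how often they do was not counted. The higher summed score exceeded the lower by a median of 1.67 times, and by less than 2 times in 13 pairs.

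The closest pair was L32, with 3′ UTR sites of 11.4 in AT5G46430 and 10.8 in AT4G18100, followed by S13, with 7.47 in RPS13A and 6.79 in AT3G60770. The most unequal pair was L39, whose protein lines the peptide tunnel, at a ratio of 7.20. There AT4G31985 had 3′ UTR sites of 10.9 and 8.23 and AT2G25210 a CDS site of 2.66. The L6 genes AT1G18540 and AT1G74050 had 3′ UTR sites of 13.1 and 2.90. The L41 genes AT3G11120 and AT3G08520, which encode one of the smallest proteins known, each had 1 site labelled as other, at 7.68 and 4.97. Only 4 sites in protein-coding genes carried that label.

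**Figure D5:**
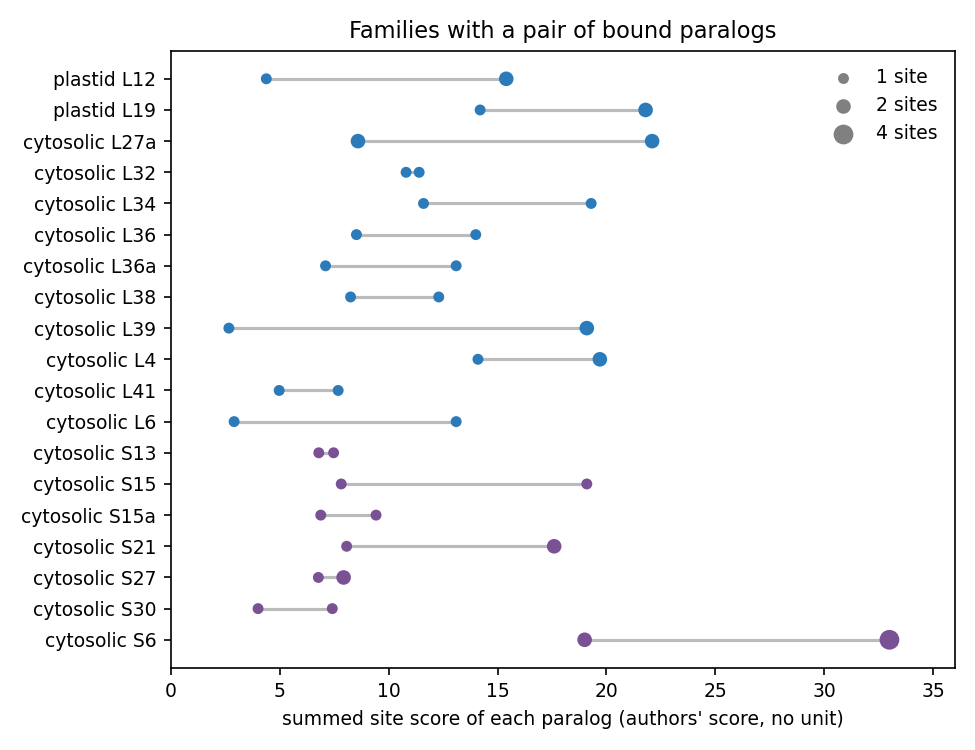
Summed site score of each bound paralog in the 19 families with a pair of bound genes, plastid families above cytosolic ones; a line joins the paralogs, point size gives the number of sites, and blue and purple mark the large and small subunit. The ratio of the paralogs runs between 1.05 in L32 and 7.20 in L39.

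Among nuclear genes that RefSeq names as ribosomal proteins, chosen without regard to binding, 37 of 67 were targets (55.2%, 43.4 to 66.5), against a background of 5.04% of 27444 nuclear protein-coding genes. Among those with a called peak the share was 36 of 44 (81.8%, 68.0 to 90.5), against a background of 73.8% of 1837 genes, which lies within that interval. The 67 are only the genes whose RefSeq symbol or synonyms hold the words "ribosomal protein", so other ribosomal protein genes are missing. They mix cytosolic, plastid and mitochondrial genes, and shares by compartment were not computed. Of the 37, 31 are among the 102 members, and PRPL28 is among the 11 genes of the wider description. The other 5 have neither wording in their description. They were PSRP2 with 6 sites, the plastid gene RPL24 with 5, SAG24 (L10 C) with 3, and BBC1 and RPS10B with 2 each.

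Called peaks without a binding site were counted in 8 of the 67 genes, and in 22 neither was counted. These counts ignore strand, so the peaks need not lie on the RNA of the gene. Peaks inside several gene spans were left out, so a count of 0 does not show that no peak was called. RPL27AB, for example, had 2 sites and a count of 0. SAC52 (L10 A) had 37 called peaks and STV1 (L24 B) had 24, and neither had a site. The others were ATL5 with 11, P40 with 8, RPS18C with 7, RPL18 with 6, and RPL23AB and RPL5B with 4 each.

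Some genes that RefSeq names as paralogs differed in whether they were listed at all, while others, such as RPS6 and EMB3010, were both targets. Sequence identity of paralogs was not measured here. RPL23AA had 28 called peaks and 2 sites, against 4 peaks and no site in RPL23AB. RPS5A had 19 peaks and 1 site, and RPS5B none of either. RP1 had 32 peaks and 2 sites, and its paralog RPL3B none. RPL12-A and RPL12-C had 37 and 22 peaks, and RPL12-B, which lies between them, none. PSRP3/1 had 33 peaks, and PSRP3/2 none. In the S15a family RPS15A had 6 peaks and 1 site, and AT5G59850, placed in that family here, 12 peaks and 1 site. The S15a genes rps15ab, RPS15AD and rps15ae had none of either. How reads that match several paralogs were assigned is not given in the sources used here. Peaks inside several gene spans were also left out of these counts. An unlisted paralog is therefore not shown to be unbound, and expression of the paralogs was not measured.

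The 11 genes caught by the word "ribosomal" alone carried 18 sites. AT5G65220, of the L29 family, had 6 sites of 11.2 to 27.0 whose sum, 99.0, was above that of every one of the 102 members. From the 5′ side they scored 11.2 and 18.8 in the CDS and 14.4, 12.5, 15.1 and 27.0 in the 3′ UTR. The plastid L18 gene EMB3105 had 2 sites (32.9 in all), and the L28e gene AT2G19730 had 1 site of 24.8. PRPL28 had 2 sites (15.7), and the other 7 genes had 1 site each, between 3.55 in AT3G05560 and 15.6 in AT3G06700.

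Of 22 genes for ribosome-associated and ribosome-assembly proteins, 2 had a called peak, and both were targets (9.09%, 2.53 to 27.8). Over all nuclear protein-coding genes 6.69% had a called peak and 5.04% were targets, and both shares lie within that interval. ATARCA (RACK1A), the scaffold protein of the small subunit, had 1 site of 11.0, and BTF3, a subunit of the nascent polypeptide-associated complex at the peptide tunnel, had 2 sites that summed to 16.8. The other 20, among them RACK1B, TOR, S6K1 and the fibrillarin genes, had no site and no called peak that lay in their span alone.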

How the data were processed

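TSN1 iCLIP2 libraries of 3 biological replicates were pooled by the authors into lists of called peaks, binding sites and target genes on TAIR10. Per the submitters' processing notes the tools included STAR 2.7.3a, UMI-tools 1.0, bedtools 2.27.1, SAMtools and FastQC 0.11.5. Not given in the sources used here were the peak caller and how replicates were pooled and regions labelled. The deposited score of a binding site is, per the file headers, the highest called-peak score within it, and in the deposited peak list the score was the lowest of 4 written beside each of 72935 peaks. The number of binding sites per gene was deposited with the targets and equalled the listed sites in all 1504.

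Coordinates are 1-based TAIR10 positions from the deposited sites, each 5 nt wide. Gene names and spans came from a RefSeq table of TAIR10.1, in which 101 of 102 members had a span. Called peaks in several spans were left out of gene counts. Compartment, subunit and family were assigned from descriptions, RefSeq names and textbook knowledge, after the data were seen. Shares have Wilson 95% intervals and medians have quartiles, computed with Python 3.11.15, pandas 2.3.3 and SciPy 1.17.1, and the interval code was tested on simulated data. No test was run, since no value belongs to a single replicate, and read depth is unknown.

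The text names the top 10 members by summed score and by number of sites (ties by summed score), the 5 highest sites per subunit, intron and 5′ UTR sites, bound pairs, stalk proteins, organelle members and members that are not ribosomal proteins. One gene that this rule takes is not reported here. Other named genes were picked with their values in view. The members and lists were chosen with earlier results of these data known. Alternatives covered the score threshold, gene weighting, label window, membership and overlapping genes.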

Additional observations from a re-analysis of the deposited data

How the results depend on the processing

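No paired analysis was possible because the deposited lists pool the replicates and no value carries a replicate number. For the same reason no replicate could be left out. Grouping by protein identity, meant for the share of named genes and for families, was not run because no protein sequences were at hand. The 3′ UTR share of 73.0% was 80% with cytosolic members only and, added after seeing the data, 65.1% with plastid members only. It lay between 67.7% and 76.4% under the other alternatives. The 67.7% leaves out labelled sites over 500 nt upstream of the last one in their gene, and the same rule gave 46.1% over all sites in protein-coding genes. The median score of 9.23 was 15.1 over sites above the median of all sites, by construction of that filter. Mean sites per gene stayed within 1.5 times of 1.85. The share of named ribosomal protein genes that were targets, 55.2%, was 40.3% with at least 2 sites required and 81.8% among genes with a called peak. The 19 families with a bound pair became 2 when each paralog needed 2 sites, and 2 when each needed a site above the median score. The median position of 0.773 was 0.711 when each gene gave its mean position. The large minus small difference in 3′ UTR share was -10.1 percentage points and -2.40 over sites above the median score. The plastid mean of sites per gene lay above the cytosolic mean in each of 7 settings, and the gap was smallest over sites above the median score, at 1.42 and 1.14. Unknown read depth limits every statement about genes without a site.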
